A study of Saccharomyces cerevisiae with 4 samples.

Results

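The genes for the proteins of the mitochondrial ribosome were followed in *esl1Δ esl2Δ* cells of *Saccharomyces cerevisiae*. They were chosen by name, as every gene called MRPL, MRPS, MRP or RSM followed only by digits, with *MRP8* left out. This gave 66 of the 6256 gene probes on the array, of which 34 were MRPL genes and 32 were other members, namely 12 MRP, 9 MRPS and 11 RSM genes. Names were taken from the current reference table through the locus tag of each probe, since the array files hold locus tags only, and *MRP35* (YNL122C) may bear another name in the older array design. The MRPL genes encode proteins of the large subunit, and the other names cover the small subunit together with *MRP7*, *MRP20*, *MRP35* and *MRP49*, whose proteins also belong to the large subunit.

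The mitochondrial ribosome translates the few messenger RNAs of the mitochondrial genome, which in yeast encode mainly core subunits of the respiratory chain and of ATP synthase. Its ribosomal RNAs and 1 of its proteins, Var1, are made inside the mitochondrion, and all other proteins are encoded in the nucleus, made on cytosolic ribosomes and imported. Some of these proteins have a counterpart in the bacterial ribosome, and others are found only in mitochondria. In yeast, cells that cannot translate in mitochondria are unable to respire and live by fermentation.

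Wild-type cells were strain Y52, which is *MATa* and *RAD5* and has mutant alleles of the markers *ADE2* (*ade2-1*), *CAN1* (*can1-100*), *LEU2*, *TRP1* (*trp1-1*) and *URA3* (*ura3-1*). The mutant had all of these alleles and in addition *esl1∆::KAN* and *esl2∆::NAT*, deletions of *ESL1* and *ESL2* marked with drug resistance genes. RNA came from log-phase cultures of both strains in rich medium (YPD, 2% glucose, 30°), in which yeast mainly ferments, and 500 ng of it was used for each labeling. Each of 3 biological replicates was a competitive hybridization of mutant against wild type on an Agilent array with the mutant in Cy5, and replicate 3 was hybridized again with the dyes exchanged (the dye swap). Since only the double mutant was hybridized, neither deletion can be assigned an effect of its own. A log2 ratio of mutant over wild type above 0 means more RNA in the mutant, and 1 is a 2-fold difference. In RNA from a whole culture, more of a messenger RNA in every cell and more cells with a high level of it cannot be told apart.

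The deleted genes had the lowest ratios of all, from -4.77 to -4.23 for *ESL1* and from -3.99 to -3.62 for *ESL2* over the 4 arrays. All 4 arrays lay on 1 slide, and the median signal of gene spots ranged from 1660 to 5186 per channel over a background of 22 to 49.5. Replicate 3 stood apart from the other replicates. Across 6254 genes its log2 ratios correlated with those of replicate 1 at r = 0.102 and with those of replicate 2 at r = 0.214, against r = 0.681 between replicates 1 and 2. These values describe genes on arrays that share a slide and a normalization method, and genes do not count as replicates. Both arrays of replicate 3 correlated with each other at r = 0.844 after the sign of the swap was turned, and results are therefore also given for replicate 3 and the dye swap on their own. Genes for proteins of the cytosolic ribosome were higher in replicate 3 than in the others. The median log2 ratio over 138 of them was 0.00 in replicate 1, 0.12 in replicate 2 and 0.67 in replicate 3.

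Nearly all genes of the mitochondrial ribosome had more RNA in the mutant, by a modest amount. Of the 66 members, 64 had a log2 ratio above 0 in all 3 replicates (97%), against 18.7% of all genes. The median over members was 0.53 in replicate 1, 0.62 in replicate 2 and 0.37 in replicate 3, with 0.00, -0.01 and 0.00 over all genes. The mean of these medians was 0.51 ± 0.13 (SD, n = 3 replicates). None of the members was below 0 in all 3 replicates, against 18.5% of all genes. The exceptions were *MRPL16*, a counterpart of bacterial L16, at -0.04 in replicate 3, and *MRP20*, the counterpart of bacterial L23 at the exit of the peptide tunnel, at -0.08 in replicate 2.

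**Figure D1:**
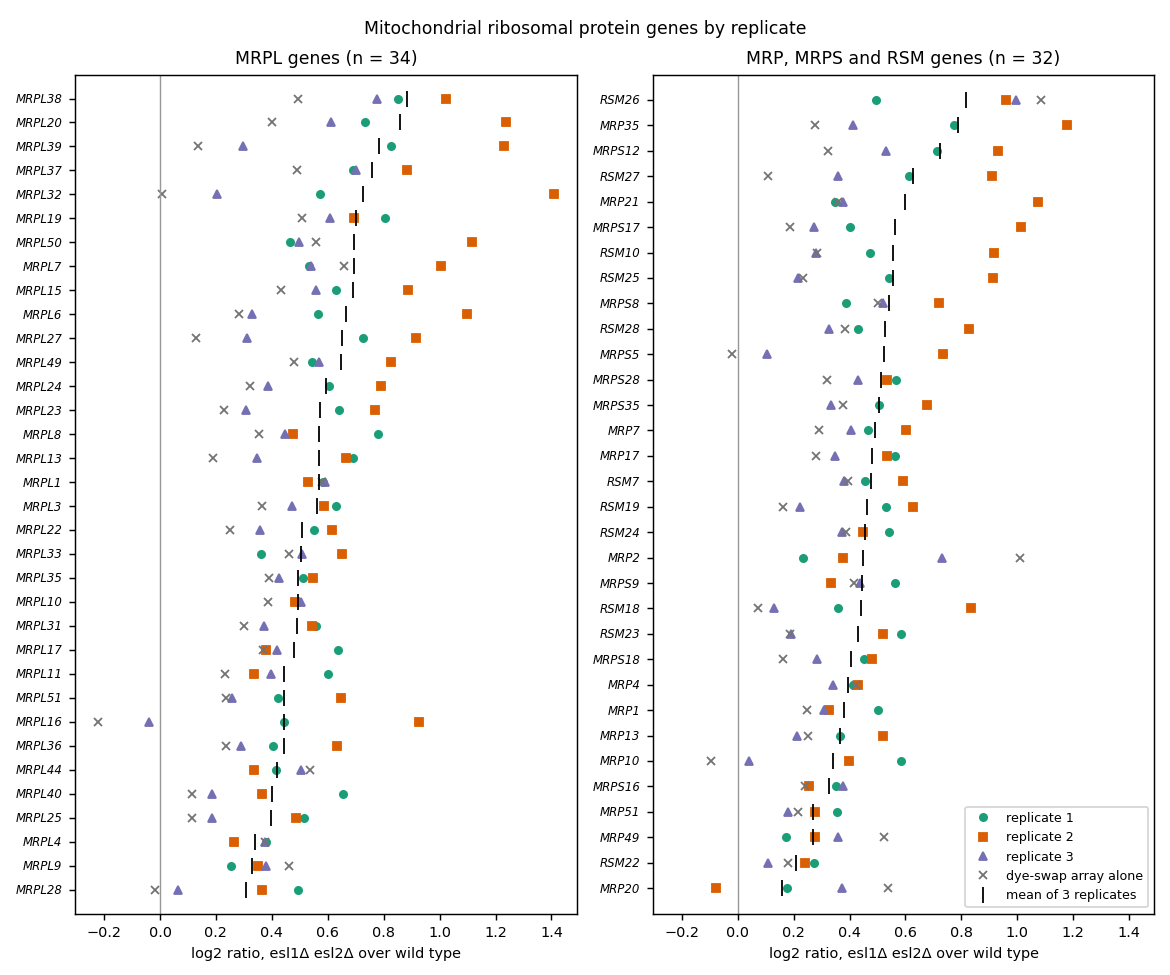
Log2 ratio of mutant over wild type (horizontal axis) for each of the 34 MRPL genes and the 32 MRP, MRPS and RSM genes, sorted by mean. Symbols stand for the 3 replicates, crosses for the dye-swap array alone (which is part of replicate 3) and vertical ticks for the mean of 3 replicates. Only *MRPL16* in replicate 3 and *MRP20* in replicate 2 lie below 0 among the replicate values, and no mean reaches 1.

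No member passed the test for a single gene. With limma and Benjamini-Hochberg adjustment over 6254 genes, 0 of 66 members had an adjusted p below 0.05, against 0.112% of all genes (7 genes), or 0.032% for the 2 of them that were higher, and the adjusted p of members ranged from 0.117 to 0.635. At an unadjusted p below 0.05, 61 members were higher in the mutant and none lower, against 7.9% of all genes higher. The members that missed this level were *MRPL16*, *MRPL28*, *MRP10*, *RSM22* and *MRP20*. The 95% limits of the mean from the same fit had a median half-width of 0.29, so that with 3 replicates a gene of this module with the median log2 ratio of 0.50 was separated from 0 before but not after adjustment.

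The mean log2 ratios of members ranged from 0.16 to 0.88, that is from 1.12-fold to 1.84-fold, with a median of 1.41-fold. None reached 2-fold, which 0.799% of all genes passed in either direction. At least 1.5-fold higher were 18 members, 13 of them MRPL genes and 5 others, against 2.45% of all genes. Among the tenth of genes with the highest means (10%) stood 61 members, 33 MRPL genes and 28 others. The highest member ranked at position 32 and the lowest at position 1403, and 27 of 66 members stood among the 200 highest of 6254 genes. Over replicates, the median SD of a member was 0.174, with 0.204 over all genes.

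**Figure D2:**
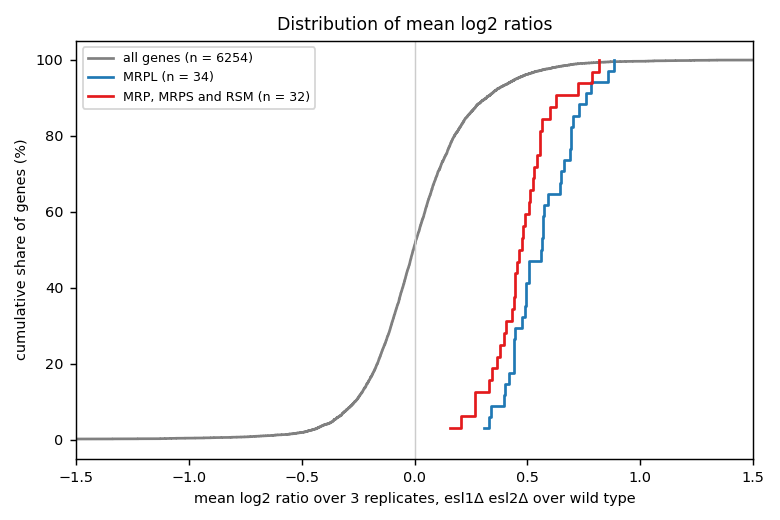
Cumulative share of genes (vertical axis, percent) by mean log2 ratio over 3 replicates (horizontal axis, drawn from -1.5 to 1.5) for all 6254 genes, the 34 MRPL genes and the 32 other members. All members lie to the right of 0, and the curve of the MRPL genes, with a median of 0.56, runs to the right of that of the others, with a median of 0.47, over most of its length.

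The large-subunit genes were slightly higher than the others. The median over the 34 MRPL genes was 0.57, 0.65 and 0.39 in replicates 1, 2 and 3 (mean 0.54 ± 0.13, SD, n = 3). For the 32 others the corresponding medians were 0.47, 0.56 and 0.35 (mean 0.46 ± 0.11). Both classes were thus high in the same replicates, and the difference between them could be taken within each. MRPL minus others was 0.10, 0.09 and 0.05, a mean of 0.08 ± 0.03 (SD, n = 3). It was above 0 in all 3 replicates, and small beside the spread of genes within a class, since the means had an SD of 0.15 over the genes of each class. Of the MRPL genes, 24 lay above the median of the others, and 5 of the others lay above the median of the MRPL genes. The MRPL genes were also shorter, with a median length of 616.5 nucleotides against 768 for the others. Whether the difference in ratio between the classes goes with length was not tested.

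The size of this difference depended on how it was summarized. With means over genes in place of medians it was 0.11, 0.10 and 0.06 in the replicates. On the dye swap alone the difference of medians was 0.08 and that of means -0.0033, so that the direction on this array held for the medians only. With the genes divided by the uniform name of their protein, which gave 38 large-subunit and 27 small-subunit genes and left out *RSM22*, the difference of medians was 0.07, 0.05 and 0.06. Without *MRP35* the median of the others averaged 0.45 and the difference 0.09. Within the other members, the 12 MRP genes had medians of 0.39, 0.42 and 0.35 in the 3 replicates. The 9 MRPS genes stood at 0.50, 0.68 and 0.38, and the 11 RSM genes at 0.49, 0.83 and 0.28. The lower values of the MRP genes in replicates 1 and 2 were not tested.

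A division by ancestry gave no difference of one direction. The 41 members with a bacterial counterpart had medians of 0.53, 0.63 and 0.38, and the 24 found only in mitochondria had 0.54, 0.57 and 0.35. The first minus the second was -0.01, 0.07 and 0.02 in the 3 replicates.

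Among the large-subunit genes, *MRPL38*, whose protein is the counterpart of bacterial L14 at the face toward the small subunit, had the highest mean. Its wild-type and mutant signals were 4239 and 7641 for replicate 1, then 3529 and 7169 for replicate 2. Replicate 3 gave 2028 and 4217 on its first array, then 2954 and 4155 with the dyes exchanged. Signals of single genes, here and below, were computed from the normalized ratio and the mean log2 intensity of each array. Which strain is brighter therefore follows from the ratio. For *MRPL38* it was the mutant on every array, in either dye. Its log2 ratios were 0.85, 1.02 and 0.77 in the 3 replicates, a mean of 0.88 ± 0.13 (limma adjusted p = 0.117).

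*MRPL20* encodes a protein found only in mitochondrial ribosomes (mL58). Wild-type and mutant signals for it were 7552 and 12540, 5338 and 12582, 4204 and 7415, and 5697 and 7521 in the same order of arrays. The log2 ratios were 0.73, 1.24 and 0.61, with a mean of 0.86 ± 0.33 (limma adjusted p = 0.168). *MRPL37*, also specific to mitochondria (mL54), varied less, with 0.69, 0.88 and 0.70 and a mean of 0.76 ± 0.11 (limma adjusted p = 0.131).

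The counterparts of the small bacterial proteins L33 and L32 were high on average and spread widely. *MRPL39* (bL33m), the shortest member, had log2 ratios of 0.83, 1.23 and 0.30 (mean 0.78 ± 0.47). *MRPL32*, whose protein is cut by the m-AAA protease of the inner membrane before it joins the ribosome, had 0.57, 1.41 and 0.20 (mean 0.73 ± 0.62), the largest SD of all members. On the dye swap the ratio of *MRPL32* was 0.01, from signals of 4186 for the wild type and 4208 for the mutant, while those of replicate 2 were 3226 and 8564. Without replicate 2 its mean was 0.39.

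*MRPL10*, a counterpart of bacterial L15, had the smallest SD, with log2 ratios of 0.49, 0.48 and 0.50. Its mean of 0.49 ± 0.01 was near the median of all members. The signals for it on the arrays of replicates 1 and 2 were 7115 and 8847 in the wild type and 10010 and 12351 in the mutant.

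The lowest MRPL genes also had means above 0. *MRPL28*, specific to mitochondria (mL40), had 0.49, 0.36 and 0.06, and its mean of 0.31 was the lowest of this class. *MRPL9*, the counterpart of bacterial L3, had 0.25, 0.35 and 0.38 (mean 0.33 ± 0.07). *MRPL4*, the counterpart of L29, had 0.38, 0.27 and 0.38 (mean 0.34 ± 0.06). These last genes were low but even across replicates. By contrast *MRPL25* (mL59, mean 0.40 ± 0.18) and *MRPL40* (L24, mean 0.40 ± 0.24) were lowest in replicate 3, at 0.18 and 0.19.

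Among the other members, *RSM26* had the highest mean. Its protein (mS42) is found only in mitochondria and resembles manganese superoxide dismutase. Wild-type and mutant signals were 7839 and 11037 in replicate 1, 8162 and 15866 in replicate 2. Replicate 3 gave 5040 and 9444 on its first array, then 5775 and 12248 with the dyes exchanged. The log2 ratios were 0.49, 0.96 and 1.00, with a mean of 0.82 ± 0.28 (limma adjusted p = 0.168). Unlike most members, it was highest in replicate 3, on both of its arrays (0.91 and 1.08).

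*MRPS12*, the counterpart of the bacterial decoding protein S12, was bright on every array, with 24934 and 40855, 26646 and 50843, 30695 and 51177, and 38214 and 47817 in wild type and mutant. Its log2 ratios of 0.71, 0.93 and 0.53 gave a mean of 0.72 ± 0.20 (limma adjusted p = 0.168). *RSM27* (mS33), a further protein of the small subunit, stood at 0.61, 0.91 and 0.36 (mean 0.63 ± 0.28). *MRP21*, the counterpart of S21, stood at 0.35, 1.07 and 0.38 (mean 0.60 ± 0.41). Without replicate 2 the mean of *MRP21* was 0.36.

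The large-subunit proteins with an MRP name covered most of the range of this class. *MRP35*, the counterpart of L35, had 0.77, 1.18 and 0.41 (mean 0.79 ± 0.38), and *MRP7*, the counterpart of L27, had 0.46, 0.60 and 0.41 (mean 0.49 ± 0.10). *MRP49*, specific to mitochondria (mL61), had 0.17, 0.28 and 0.36 (mean 0.27 ± 0.09). *MRP20* had the lowest mean of all members, with 0.18, -0.08 and 0.37, a mean of 0.16 ± 0.23 (limma adjusted p = 0.635) and 95% limits from -0.16 to 0.48. This mean was 0.05 without replicate 3, 0.28 without replicate 2, 0.10 without the dye swap and 0.32 with a dye term, and it was no longer the lowest without replicate 2, where *RSM22* had 0.19, or with the dye term. Its wild-type signal exceeded the mutant signal on the array of replicate 2 only, with 3440 against 3261. Thus these 4 genes include the second highest and the lowest mean of the class of others.

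The remaining low members were *RSM22* and a pair of small-subunit genes. *RSM22*, which resembles methyltransferases, has no uniform name in the reference table and is the longest member, had 0.27, 0.24 and 0.11 (mean 0.21 ± 0.09). *MRP51*, which acts with the untranslated leaders of mitochondrial messenger RNAs in translation, had 0.35, 0.28 and 0.18 (mean 0.27 ± 0.09). *MRPS16*, the counterpart of S16, had 0.35, 0.25 and 0.38 (mean 0.33 ± 0.06). All 3 were above 0 on every array.

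The order of members was not stable between arrays, while the direction was. Across the 66 members the log2 ratios of replicates 1 and 2 correlated at r = 0.467, those of replicates 1 and 3 at r = 0.179 and those of replicates 2 and 3 at r = 0.173. The dye swap alone gave r = -0.197 with replicate 1, -0.058 with replicate 2 and 0.493 with the first array of replicate 3. Replicate 2 was the highest for 36 members, replicate 1 for 21 and replicate 3 for 9, and replicate 3 was the lowest for 46. Without replicate 3 the median was 0.61 over MRPL genes and 0.52 over the others. Then 46 members, 27 MRPL genes and 19 others, were higher with a limma adjusted p below 0.05, against 4.67% of all genes higher and 9.63% called in either direction. This fit rests on the arrays of replicates 1 and 2 alone, both with the mutant in Cy5, and so has no dye swap. With replicate 1 or replicate 2 left out instead, no member passed. Of all 6254 genes, only 2 and 3 passed in these fits, and 0% were called higher.

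Exchanging the dyes left the direction of nearly all members. On the dye swap alone 62 of 66 members were above 0, with a median of 0.31 against -0.0043 over all genes. On the first array of replicate 3, with the same RNA, the median was 0.42 over members and 0.0054 over all genes. On all 4 arrays 61 members were above 0 (32 MRPL genes and 29 others), against 14% of all genes. The exceptions were *MRPL16*, *MRPL28*, *MRPS5*, *MRP10* and *MRP20*. Single genes differed more between these arrays, which differ in dye and are also separate hybridizations. The first array minus the dye swap ranged from -0.56 to 0.56 over members with a median size of 0.16, the first array was the higher for 48 of them, and only 2 of the 10 highest members were shared by both arrays. *MRPL38* had 1.06 on the first array and 0.49 on the swap, and *MRP2*, a small-subunit protein chosen here after its values were seen, stood at 0.45 and 1.01. A dye-specific part of the ratio is balanced within replicate 3 but not in replicates 1 and 2. With all 4 arrays in one limma fit with a dye term, the median was 0.45 over MRPL genes and 0.39 over the others. Among the 22 members named by rule, *MRPL39* (0.49), *MRPL32* (0.40), *MRPL28* (0.16) and *RSM27* (0.41) were lower in it by more than 1.5 times than in the replicate means. The remaining members were not compared in this way, so the list is not complete. The dye swap weighs as much in this fit as all arrays with the mutant in Cy5 together. In this fit an effect of dye can therefore not be told apart from the departure of replicate 3.

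**Figure D3:**
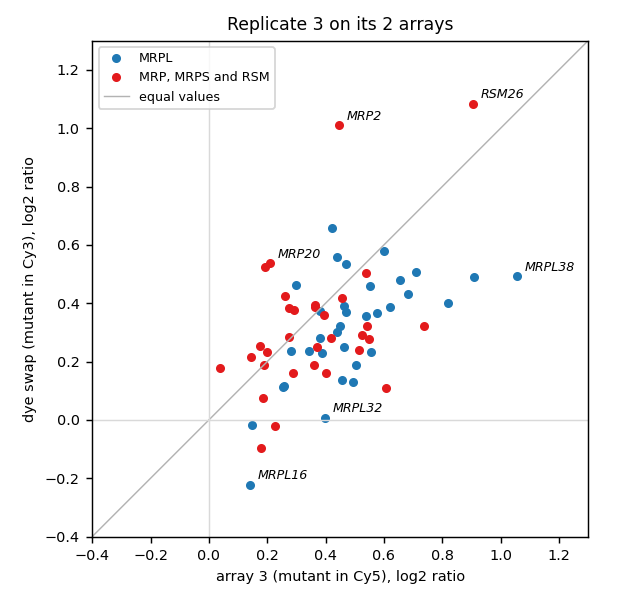
Log2 ratio of mutant over wild type for each member on the 2 arrays of replicate 3, with the mutant in Cy5 (horizontal axis) and in Cy3 (vertical axis). The line marks equal values, and 48 of 66 members lie to its right while 62 lie above 0 on the swap.

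Short genes had higher ratios than long genes on these arrays, and members are mostly short. Over the 5755 genes with a length in the reference table (R64), the mean log2 ratio and this length correlated with a Spearman's rho of -0.281, as a description across genes. The members ranged from 213 to 1887 nucleotides, and across them alone rho was -0.232. Among genes of up to 450 nucleotides, the mean log2 ratio of a gene had a median of 0.48 over 19 members and 0.11 over 554 other coding genes. From 451 to 600 nucleotides it was 0.62 over 10 members and 0.10 over 386 others. From 601 to 900 nucleotides it was 0.56 over 21 members and 0.06 over 904 others. The members of 901 to 1200 nucleotides (14 genes) had 0.49, against 0.00 over 908 others. The members lay above the other genes of the same length class by at least 0.37 in each of these classes, and an effect of length was not tested. The 2 members over 1200 nucleotides had a median of 0.32, against -0.06 over 2921 others.

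**Figure D4:**
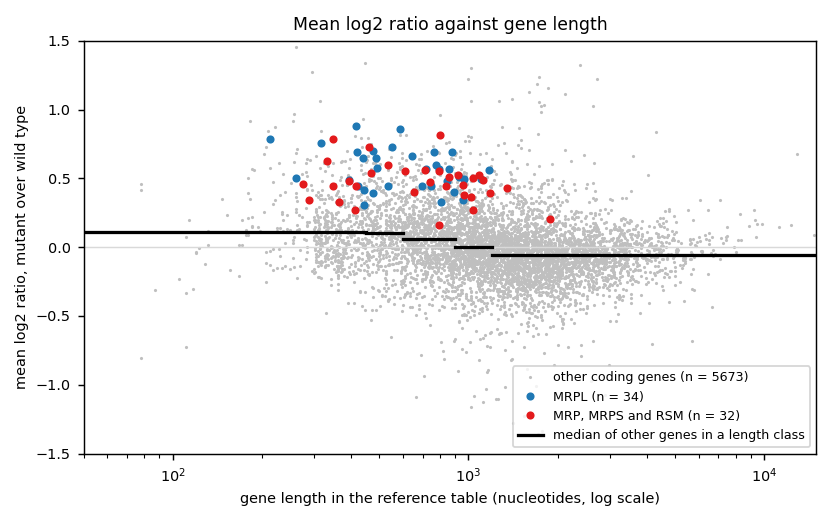
Mean log2 ratio over 3 replicates (vertical axis, drawn from -1.5 to 1.5, which leaves out 15 genes) against gene length in nucleotides (log scale) for members and 5673 other coding genes. Black bars mark the median of the other genes in each length class, from 0.11 in the shortest class to -0.06 in the longest, and the members lie mostly above them.

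The members were scattered over the genome. They lie on 14 of the 16 nuclear chromosomes, and *MRPS12* and *RSM19* on chromosome XIV, with means of 0.72 and 0.46, were the only members next to each other in the reference table. None of the members was within 5 genes of *ESL1* or *ESL2*.

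Genes for mitochondrial ribosomal proteins under other names also had values above 0. All 13 that were listed were above 0 in all 3 replicates, against 18.7% of all genes, with medians of 0.54, 0.56 and 0.38. Of them, 12 were higher with an unadjusted limma p below 0.05, against 7.9% of all genes. *MRX14*, a counterpart of bacterial L34, was the highest of these, with 0.81, 1.28 and 0.45 (mean 0.85 ± 0.42). *EHD3*, whose protein is also known as an enzyme of valine breakdown, was the lowest at a mean of 0.34 ± 0.23. *VAR1*, the gene in mitochondrial DNA, had 0.09, 0.76 and 0.22. *YML6*, the counterpart of L4, was not on the list and was looked up afterwards. It had 0.29, 0.01 and 0.13 (mean 0.14 ± 0.14), below all members. *MRP8*, which the choice of members left out, had 0.16, 0.13 and -0.15.

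Of the genes listed for the other parts of mitochondrial translation, none passed a limma adjusted p of 0.05, and their lists differed in how many genes were above 0 in all 3 replicates, which 18.7% of all genes were. Of 9 translation factors, 8 were above 0 in all 3 replicates, with medians of 0.56, 0.37 and 0.29. *TUF1*, the mitochondrial elongation factor Tu, was the highest, with an even 0.77, 0.77 and 0.74 (mean 0.76 ± 0.02, limma adjusted p = 0.12). *FMT1*, which formylates the initiator methionyl-tRNA, was the lowest at a mean of -0.02 ± 0.15. Of 13 mitochondrial aminoacyl-tRNA synthetases, 12 were above 0 in all 3 replicates, with medians of 0.60, 0.40 and 0.18. *MSY1*, for tyrosine, had the highest mean (0.87 ± 0.25) and *MSD1*, for aspartate, the lowest (0.22 ± 0.16).

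Factors that act on single messenger RNAs or build the ribosome had lower medians than the members in each replicate. Of 16 genes for messenger-specific activators and related factors, 8 were above 0 and 1 was below 0 in all 3 replicates, with medians of 0.17, 0.30 and 0.19. *CBP6*, which binds the ribosome and serves the translation of cytochrome *b*, had the highest mean (0.63 ± 0.09), and *ATP22*, the activator for subunit 6 of ATP synthase, the lowest (-0.16 ± 0.06). The 7 assembly genes had medians of 0.21, 0.06 and 0.18, and 2 (28.6%) were above 0 in all 3 replicates, near the 18.7% of all genes. Their means ran from 0.07 ± 0.39 for *MRM1*, a methyltransferase of the large ribosomal RNA, to 0.19 ± 0.30 for *MTG2*, a GTPase of large-subunit assembly. At the inner membrane, *MBA1*, a receptor for the ribosome, had 0.84, 1.06 and 0.37 (mean 0.76 ± 0.35). *OXA1*, the insertase, had a mean of 0.14 ± 0.27 and *MDM38*, which also binds ribosomes, one of -0.11 ± 0.06. The activators and assembly genes were also longer, with median lengths of 1513.5 and 1239 nucleotides against 706.5 for members. So were the translation factors (1314) and the synthetases (1611). The differences in ratio between lists were not tested.

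**Figure D5:**
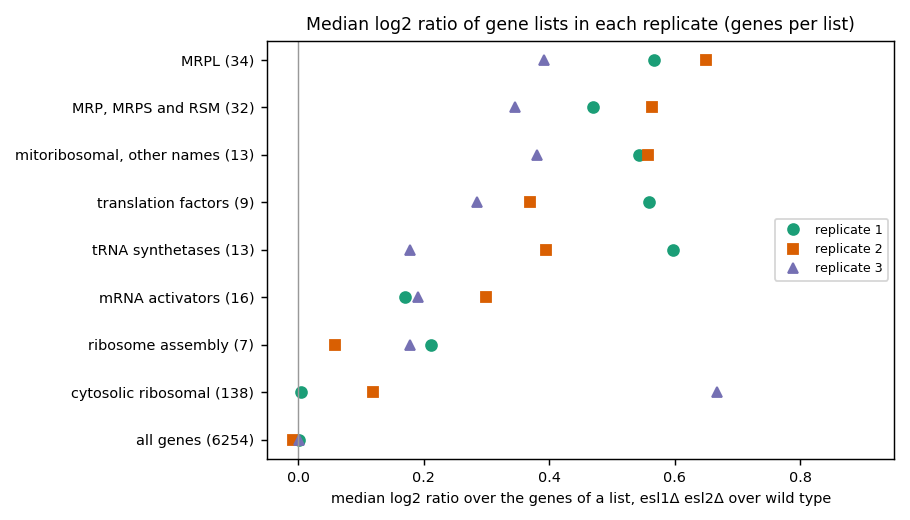
Median log2 ratio of mutant over wild type over the genes of each list (horizontal axis) in replicates 1, 2 and 3, with the number of genes in parentheses. In replicates 1 and 2 both classes of members lie between 0.47 and 0.65 and the cytosolic ribosomal protein genes at 0.00 and 0.12, and in replicate 3 the cytosolic genes lie above, at 0.67.

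Genes of the cytosolic ribosome had another pattern over replicates. Of 138 such genes, 51 were above 0 in all 3 replicates (37.0%), against 64 of 66 members and 18.7% of all genes. Many of the cytosolic proteins are encoded by pairs of nearly identical genes, whose probes may not tell the copies apart. Members minus cytosolic genes, as a difference of medians, was 0.53 in replicate 1, 0.50 in replicate 2 and -0.29 in replicate 3. The direction thus turned in replicate 3, on its first array (-0.39) and on the dye swap (-0.28), where the cytosolic genes were higher than in the other replicates and the members lower.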

How the data were processed

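The authors deposited, per array, spot intensities (median foreground and background in each dye, not normalized) from Feature Extraction 10.1.1.1, with a log10 ratio, red over green, made by that software. Their series table repeats this deposited log10 ratio and is not turned for the dye swap. The labels gave strains, replicates and dyes.

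Here, intensities were corrected by normexp (offset 50, all spots) and normalized by loess per array with limma 3.58.1 in R 4.3.3. The 536 control spots and 291 to 486 outlier spots per array were left out and the 15208 gene spots averaged per probe, 2 or 3 for each member. The swap was turned and both arrays of replicate 3 averaged. All 66 members were well above background in both channels on all 4 arrays, and 0 spots were saturated. The number of arrays limits the precision. Locus tags gave symbols for 5756 of 6256 probes through the reference table (assembly R64), the members and their uniform names included. The builds differ, so no coordinates are given.

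Ratios were tested against 0 with limma (lmFit, eBayes, two-sided, Benjamini-Hochberg over 6254 genes with values in 3 replicates, 5.28 total degrees of freedom). The labels call the replicates biological. Whether these were separate cultures is not stated, and p-values measure the spread between them. The procedure was tested on simulated data with noise independent between genes and replicates. These held neither the departure of replicate 3 nor a dye effect, so they do not show how the test behaves under either. Named are the 5 highest and 5 lowest genes of each class, those with the largest and smallest SD, *MRP7*, *MRP20* and *MRP49*, and the extremes of each of 6 lists (61 genes). Members and lists were chosen with earlier results of these data known, so no p-value is given for a list. Alternatives varied where the ratio came from, how background and arrays were corrected, which dim probes entered, the averaging of spots, the use of the swap, a dye term, the prior, the division into subunits and the replicates. The cytosolic genes were taken by name from the reference table.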

Additional observations from a re-analysis of the deposited data

How the results depend on the processing

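Aquantile after loess, the filter on dim probes (which all 66 members passed) and the trended, robust prior left each ratio of a member as it was, and the series table repeats Feature Extraction's log ratio, so these are not counted here. Under the settings that could move them, the MRPL median lay between 0.45 and 0.61 (13 settings), that of the others between 0.39 and 0.52 (14) and the difference between 0.05 and 0.10 (15). The division by uniform name and the omission of *MRP35* were chosen after seeing the data. In 10 settings with values per replicate, 61 to 65 members were above 0 in all of them and 0 were below. The 22 named members kept their direction in 242 of 242 values over 11 settings, and 6 of them moved by over 1.5 times in at least 1. The only change of side was for 12 of them, which passed an adjusted p of 0.05 without replicate 3.

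The number of genes with a limma adjusted p below 0.05, 7 of 6254, was 1 with Feature Extraction's log ratio, 1 with the series table, 11 with median centring and 4 with the dye swap alone for replicate 3. It ranged from 2 to 602 with 1 replicate left out, and the members among them from 0 to 46. With 1 replicate left out, the MRPL median ranged from 0.48 to 0.61, that of the others from 0.41 to 0.52, their difference from 0.07 to 0.09 and the members above 0 from 64 to 65. The counts of 602 and 46 came without replicate 3, where both arrays left had the mutant in Cy5, and the cause was not tested. In the fit with a dye term the correlation between arrays of replicate 3 could not be estimated, and all 4 arrays were taken as separate. This fit gives no values per replicate. The strains are paired on each array, so that every test here is of paired ratios, and no further replicate block was fitted.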
